A study of Mus musculus with 42 samples.

Results

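Extracellular matrix and fibrosis genes were followed through 3 RNA-seq experiments on mouse kidney. The set holds 38 genes chosen by name, with earlier results of these data known, out of the 54532 genes that each table lists. It covers collagens, matrix glycoproteins, proteoglycans, markers of mesenchymal and contractile cells, TGF-beta ligands, proteases with their inhibitors, and lysyl oxidases. Every one of the 38 was found in all 3 tables and passed the filter on low counts in each of them.

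The RNA came from pieces of whole kidney of 42 C57BL/6 mice, with 3 mice in each of 14 groups. In the CaggCreERT2 experiment, mice were examined at P30 (postnatal day 30). All of them, controls included, carried a Cre that is active throughout the body after tamoxifen, and all received tamoxifen through the milk of treated mothers. The 4 CaggCreERT2 genotypes were control (Tsc2+/+), Tsc2 KO (Tsc2 fl/fl), Tfeb KO (Tfeb fl/fl) and the double knockout DKO (Tsc2 fl/fl with Tfeb fl/fl). In the KspCre experiment, examined at P50, the cadherin 16 promoter drives Cre in the tubular epithelium. Fibroblasts, vessels and blood cells therefore keep both genes in that model. The 4 genotypes were the same, but the KspCre controls carried no Cre. The drug experiment used KspCre control, Tsc2 KO and DKO mice at P50, each given either vehicle or rapamycin. Rapamycin was injected into the peritoneum at 1 mg/kg, 3 times a week and 11 times in all from day 25 of age.

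Kidney fibrosis is the build-up of matrix between the tubules. Fibroblasts and myofibroblasts secrete the fibrillar collagens I, III and V, while collagen IV and the related collagens XV and XVIII belong to the basement membranes under tubules and around vessels. TGF-beta ligands raise the transcription of many matrix genes, lysyl oxidases crosslink collagen and elastin, and metalloproteinases such as MMP14 cleave matrix proteins under the control of TIMP inhibitors. Tsc2 is part of the complex that restrains the growth kinase mTORC1, rapamycin inhibits that kinase, and Tfeb encodes a transcription factor for lysosomal genes.

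Reads counted on genes ranged from 16047699 to 20865587 per library in the CaggCreERT2 experiment, from 14926050 to 20541625 in the KspCre experiment and from 15104557 to 22807605 in the drug experiment. Between replicates of a group the mean squared difference was 16.4 to 87.5 times that of sampling noise. The p-values here measure the spread between these mice. Levels are given as FPKM, the authors' fragments per length of gene and size of library. In the CaggCreERT2 experiment Tsc2 stood at 9.81 to 10.6 FPKM in controls, 4.06 to 4.55 in Tsc2 KO, 9.05 to 10.2 in Tfeb KO and 4.82 to 5.64 in DKO. Tfeb stood there at 4.57 to 8.02 in controls, 2.73 to 3.73 in Tfeb KO and 1.99 to 3.48 in DKO. Untreated KspCre DKO held Tsc2 at 5.17 to 5.81 FPKM, against 8.75 to 9.26 in controls and 3.54 to 4.37 in Tsc2 KO. In the drug experiment Tsc2 stood at 8.59 to 9.81 FPKM in vehicle controls, 3.8 to 4.47 in vehicle and 5.06 to 6.5 in rapamycin Tsc2 KO, and 5.53 to 6.41 in vehicle DKO. The rapamycin Tsc2 KO mice and, in each experiment, the DKO mice thus held more Tsc2 RNA than the untreated or vehicle Tsc2 KO mice, with no overlap. The part of this in the results below was not tested. Tfeb in the untreated KspCre groups stood at 5.85 to 6.24 FPKM in controls, 3.66 to 6.12 in Tsc2 KO, 4.32 to 5.25 in Tfeb KO and 2.65 to 4.09 in DKO. The KspCre Tfeb KO values lay below all controls and within the range of Tsc2 KO. The count and FPKM tables of the CaggCreERT2 experiment disagree on the genotype of 2 libraries, and the FPKM table's names were used. Under these names the Tsc2 values of Tfeb KO and DKO given above do not overlap. The count table's names would move 1 library of each of these groups into the other. Its groups also differed in sex: Y-linked genes were read in 3 controls, 1 Tsc2 KO, 0 Tfeb KO and 2 DKO mice, and in no library of the other experiments. Some libraries stood apart in marker genes of other tissue. Summed adrenal markers reached 903 FPKM in vehicle Tsc2 KO mouse 1, 228 in vehicle DKO mouse 1 and 3097 in vehicle DKO mouse 2, and summed macrophage markers reached 725 FPKM in KspCre DKO mouse 1 against 48.2 to 173 in the other 11 KspCre libraries. Counts of members, and the members in which these libraries stood out, are given below with and without vehicle Tsc2 KO mouse 1 and DKO mouse 2 together, and KspCre DKO mouse 1. Vehicle DKO mouse 1 was left out only by itself. In whole kidney, a change in the number of cells of a type and a change in RNA per cell cannot be told apart. The libraries carry no strand information, so reads in overlapping genes cannot be assigned to one strand.

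Among the 38 genes, Sparc (a collagen-binding glycoprotein) had the highest median level over the 42 libraries, at 76.6 FPKM. It was followed by the basement membrane genes Col4a1 at 52.6, Col18a1 at 50.9 and Col4a2 at 38.1 FPKM. Their ranges over the libraries overlapped widely, from 27.0 to 357 FPKM for Sparc and from 23.3 to 244 for Col4a1. The fibrillar collagens Col1a1 and Col3a1 stood lower, at medians of 8.32 and 8.30 FPKM. At the foot of the order were Timp1 (an inhibitor of metalloproteinases) at 0.929 and Tagln (a smooth muscle actin-binding protein) at 0.536 FPKM. Controls at P30 held more of most of these RNAs than controls at P50. Of the 36 members with a mean of at least 1 FPKM over those controls, 28 were higher in all 3 CaggCreERT2 controls than in all 6 untreated or vehicle KspCre controls and 0 were lower in all, against 25.9% of all such genes higher. Col3a1, for example, read 46, 75.6 and 32.8 FPKM in the CaggCreERT2 controls and 4.98, 8.49 and 7.34 in the KspCre controls. The tables were scaled separately and age, Cre line, tamoxifen and sex differ together between them, so these cannot be told apart.

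Promoter windows, from 250 bases before to 50 after the annotated start, were read from RefSeq on GRCm38.p6 for 25 of the 38 genes. Col4a1 and Col4a2, which encode the chains of the ubiquitous collagen IV, start from opposite strands of one short region on chromosome 8. Their windows, Col4a1 on the minus strand at chr8:11312777-11313076 and Col4a2 on the plus strand at chr8:11312555-11312854, are shown because both genes lay on the same side in every Tsc2 KO, DKO and rapamycin comparison below. Capitals mark the 78 bases that both windows hold, each written 5′ to 3′ on its own strand.
Col4a1: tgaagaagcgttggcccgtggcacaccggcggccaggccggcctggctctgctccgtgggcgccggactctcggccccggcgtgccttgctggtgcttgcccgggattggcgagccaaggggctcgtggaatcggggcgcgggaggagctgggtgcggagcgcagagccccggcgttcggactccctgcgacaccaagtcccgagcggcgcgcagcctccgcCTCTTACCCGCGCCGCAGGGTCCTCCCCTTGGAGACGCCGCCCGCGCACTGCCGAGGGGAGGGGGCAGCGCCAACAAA
Col4a2: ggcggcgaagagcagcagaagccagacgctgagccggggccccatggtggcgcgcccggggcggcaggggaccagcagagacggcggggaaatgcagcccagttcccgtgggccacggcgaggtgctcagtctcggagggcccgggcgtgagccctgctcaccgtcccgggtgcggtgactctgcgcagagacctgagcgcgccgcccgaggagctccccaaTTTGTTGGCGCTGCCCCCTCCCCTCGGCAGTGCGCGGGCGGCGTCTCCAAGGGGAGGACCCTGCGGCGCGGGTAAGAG

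Timp1 and Mmp14 are shown next, since Timp1 had the largest increase of the set in each experiment and Mmp14 had its lowest adjusted p in 2 of them. The Timp1 window lies at chrX:20869916-20870215 and the Mmp14 window at chr14:54431348-54431647, both on the plus strand. Capitals mark matches on either strand to CCAAT, the box read by factor NF-Y, and to GGGCGG, the GC box read by Sp1. Matches that adjoin run together.
Timp1: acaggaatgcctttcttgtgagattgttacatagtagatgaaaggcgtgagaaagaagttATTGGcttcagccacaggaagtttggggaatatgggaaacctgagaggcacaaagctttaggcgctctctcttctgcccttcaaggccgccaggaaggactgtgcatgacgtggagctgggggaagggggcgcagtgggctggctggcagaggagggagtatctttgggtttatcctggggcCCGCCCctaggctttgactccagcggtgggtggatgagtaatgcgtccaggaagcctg
Mmp14: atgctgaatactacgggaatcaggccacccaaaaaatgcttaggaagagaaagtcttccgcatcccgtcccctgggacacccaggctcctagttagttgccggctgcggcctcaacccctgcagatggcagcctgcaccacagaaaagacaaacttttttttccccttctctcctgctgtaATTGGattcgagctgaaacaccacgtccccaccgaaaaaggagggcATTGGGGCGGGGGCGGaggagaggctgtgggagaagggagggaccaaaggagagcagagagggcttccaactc

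The 25 genes have 30 windows, some genes having several starts. Searched on both strands, CCAAT was found in 10 and GGGCGG in 17 of the 30 windows (33.3% and 56.7%), against 37.4% and 35.7% of all 32851 RefSeq windows. CACGTG, the core of the E-box and CLEAR motifs that TFEB reads, was found in 3 windows, of Tgfb2 and Fbln1 (10%), against 7.15% of all windows. TGANTCA, the AP-1 motif, was found in 1 window, of Col6a1 (3.33%), against 7.81%, and TATAAA in 6, of Col3a1, Postn, Tgfb2, Tnc and Vim (20%), against 13.6%. These are matches of letters within 300 bases and not sites shown to be bound. The Tgfb2 window lies on the minus strand at chr1:186705940-186706239 and the Fbln1 window on the plus strand at chr15:85205699-85205998, with CACGTG in capitals.
Tgfb2: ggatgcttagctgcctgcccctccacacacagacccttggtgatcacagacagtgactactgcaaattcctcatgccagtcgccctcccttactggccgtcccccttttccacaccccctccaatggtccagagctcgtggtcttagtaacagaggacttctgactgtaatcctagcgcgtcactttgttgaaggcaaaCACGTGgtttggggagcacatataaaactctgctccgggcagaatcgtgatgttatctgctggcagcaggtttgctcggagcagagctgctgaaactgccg
Fbln1: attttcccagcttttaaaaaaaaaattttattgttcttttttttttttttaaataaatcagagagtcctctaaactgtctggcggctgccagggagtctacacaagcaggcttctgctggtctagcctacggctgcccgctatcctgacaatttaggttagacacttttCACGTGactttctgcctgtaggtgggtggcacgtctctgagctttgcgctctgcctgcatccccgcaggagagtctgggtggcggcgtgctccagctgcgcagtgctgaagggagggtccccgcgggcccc

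Loss of Tsc2 was followed by higher levels of part of the set, and edgeR called no member lower in the fits reported. Under other settings up to 4 members were called lower, as given with the fibroblast genes below. In CaggCreERT2 kidneys 12 of the 38 genes were higher in Tsc2 KO than in control at an adjusted p of 0.05 or less (edgeR quasi-likelihood test, Benjamini-Hochberg adjustment over all tested genes), where 15.6% of all tested genes were called higher. In untreated KspCre kidneys 5 were higher, where 7.64% of all genes were, and in vehicle-treated KspCre kidneys 20 were, where 19.4% of all genes were. The members called higher were 31.6%, 13.2% and 52.6% of the 38, each a larger share than among all genes. The 38 were chosen with earlier results of these data known, so this comparison is not a test of the set. The median log2 fold change of all 38 was 0.42, 0.57 and 0.99 in that order, against a median over all genes within 0.02 of 0 in each. Col4a1, Col4a2, Col18a1 and Timp1 were called higher in all 3 experiments. Another 5 (Col5a2, Loxl1, Mmp14, Tgfb1 and Tgfb2) were called in both the CaggCreERT2 and the vehicle experiment. Acta2, Ctgf and Vim were called in CaggCreERT2 kidneys only, and 15 genes in none. Those 15 were Col6a1, Col6a2, Col6a3, Col14a1, Col15a1, Fbln1, Postn, Tnc, Lum, Dcn, Pdgfra, Pdgfrb, Tagln, Mmp2 and Loxl2, whose log2 fold changes ran from -1.68 to 0.66 in CaggCreERT2, from -1.57 to 0.81 in untreated KspCre and from -1.56 to 1.02 in vehicle mice, Lum being the lowest each time. In CaggCreERT2 kidneys 7 were higher and 2 lower (Lum and Postn) without Tsc2 KO mouse 2. The share of all genes is not given for the fits without a control or Tsc2 KO mouse. The untreated KspCre count depended on single mice: it was 1 without control mouse 1, 2 without Tsc2 KO mouse 1 and 3 without control mouse 3. Without the macrophage-rich DKO library it was 8, where 8.57% of all genes were called higher. In the vehicle experiment it was 11 higher, with Lum lower, without control mouse 3 and 13 without Tsc2 KO mouse 2.

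**Figure D1:**
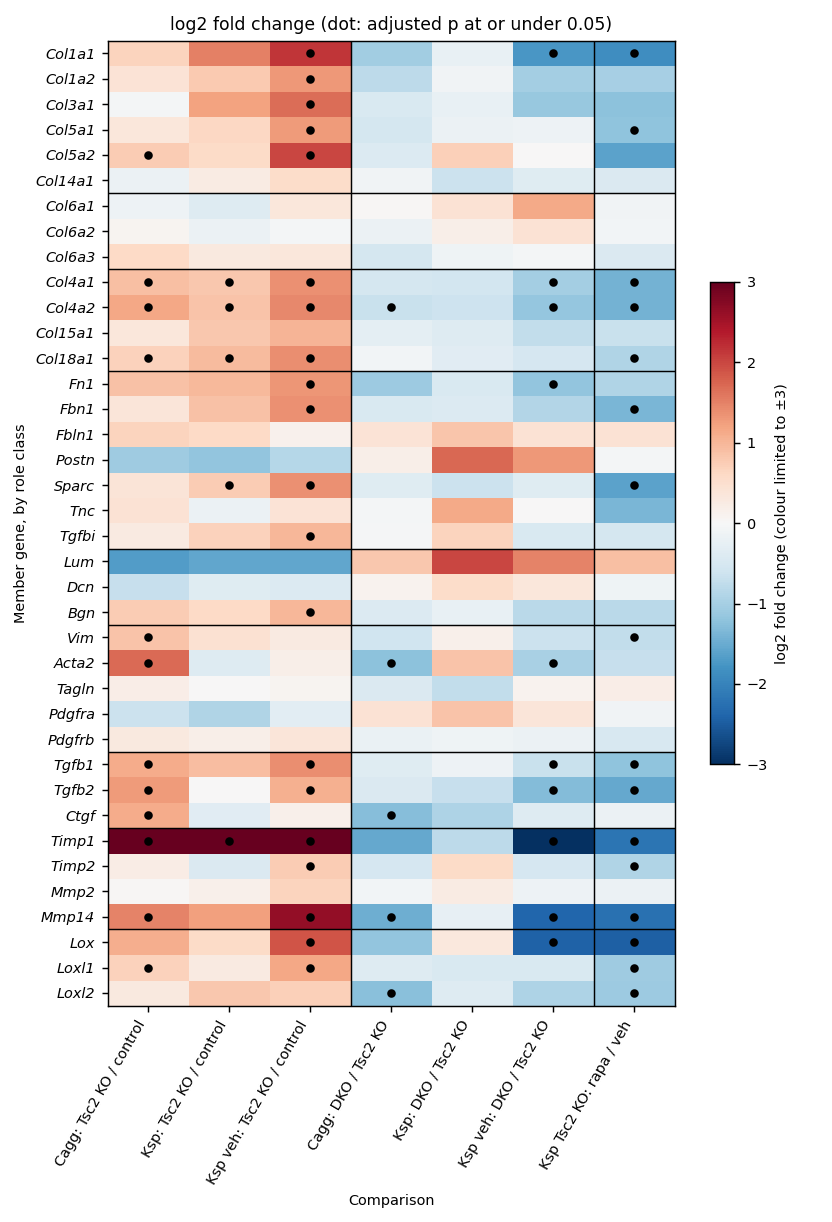
Log2 fold changes of the 38 genes (rows, grouped by role) in 7 comparisons (columns), coloured from blue (lower) to red (higher) with the colour limited at 3, with a dot where the adjusted p was 0.05 or less. Col4a1, Col4a2, Col18a1, Tgfb1, Timp1 and Mmp14 are red in the Tsc2 KO columns and mostly blue in the DKO and rapamycin columns. Lum shows the opposite colours with no dot, and Postn is blue in the Tsc2 KO columns with no dot.

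Of the 4 basement membrane collagen genes in the set, Col4a1, Col4a2 and Col18a1 were called higher in each experiment. Col4a1 read 124, 118 and 127 FPKM in CaggCreERT2 controls and 241, 244 and 173 in Tsc2 KO. The untreated KspCre values were 37, 49.8 and 51.2 in controls and 96.7, 67.7 and 78.9 in Tsc2 KO, and in vehicle mice 40.2, 23.3 and 32.7 against 60.8, 100 and 85.7. All 3 Tsc2 KO values lay above all 3 controls in each experiment. The log2 fold changes ± SE were 0.89 ± 0.20 (adjusted p = 0.00613), 0.81 ± 0.20 (adjusted p = 0.0206) and 1.36 ± 0.27 (adjusted p = 0.000771).

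Col4a2 rose beside it. Its CaggCreERT2 values were 94.1, 96.1 and 94 FPKM in controls and 230, 215 and 166 in Tsc2 KO. In untreated KspCre kidneys they were 29.1, 38.1 and 37.3 against 76, 53.3 and 61.3, and in vehicle kidneys 30.3, 19.8 and 26.8 against 61, 78.3 and 70.8. Controls and Tsc2 KO did not overlap in any of the 3 experiments. The log2 fold changes were 1.17 ± 0.19 (adjusted p = 0.000741), 0.86 ± 0.16 (adjusted p = 0.00498) and 1.45 ± 0.23 (adjusted p = 0.00014). Col4a2 was the one gene of the set whose call held in all 3 experiments whichever single control or Tsc2 KO mouse was left out.

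Col18a1 encodes the collagen XVIII core protein, whose end fragment is endostatin. It read 65.9, 59.8 and 63.9 FPKM in CaggCreERT2 controls and 111, 98.6 and 81.4 in Tsc2 KO, a log2 fold change of 0.68 ± 0.20 (adjusted p = 0.0229). In untreated KspCre kidneys the values were 27.1, 37.1 and 50.5 against 75.9, 75.6 and 70.4. In vehicle kidneys they were 33.2, 19.2 and 31.7 against 49.6, 92 and 78.9. The Tsc2 KO mice were above the controls in each, by 0.95 ± 0.24 (adjusted p = 0.0234) and 1.39 ± 0.27 (adjusted p = 0.000742) on the log2 scale. Of the 6 fits that left out 1 mouse, 5 lost the Col18a1 call in CaggCreERT2, 4 in untreated KspCre and 0 in vehicle kidneys. Col15a1, the fourth gene, was not called in any, at 0.33, 0.80 and 1.02.

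The 3 genes of TGF-beta signalling in the set were all called higher in CaggCreERT2 Tsc2 KO. Tgfb1, the ligand most often tied to fibrosis, read 6.53, 5.81 and 6.16 FPKM in controls and 12.4, 14.7 and 11.2 in Tsc2 KO, a difference of 1.11 ± 0.20 (adjusted p = 0.00133). With vehicle it read 3.15, 2.26 and 3.47 against 6.77, 8.63 and 8.02, a difference of 1.40 ± 0.22 (adjusted p = 0.00013). Untreated KspCre kidneys gave 2.95, 5.64 and 4.69 against 10.4, 6.89 and 7.95, and these groups did not overlap either. There the test gave 0.92 ± 0.32 with an adjusted p of 0.0761. Tgfb1 was called higher there by DESeq2, without the low-count filter, with only the groups compared and without the macrophage-rich DKO library. With a replicate block it was not.

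Tgfb2 gave a less even picture between the KspCre experiments. It read 1.36, 2.03 and 1.5 FPKM in CaggCreERT2 controls and 4.09, 3.77 and 3.59 in Tsc2 KO (1.29 ± 0.20, adjusted p = 0.000506). The vehicle experiment gave 1.27, 1.65 and 1.28 against 2.8, 2.94 and 3.06 (1.07 ± 0.22, adjusted p = 0.00101). In untreated KspCre mice control 3 stood at 3.84, above the Tsc2 KO values of 2.31, 2.32 and 2.34, while the other controls stood at 1.42 and 1.59. The difference there was 0.02 ± 0.32 (adjusted p = 0.979). Ctgf, a CCN-family protein induced by TGF-beta and YAP, was called higher in CaggCreERT2 mice alone, at 28.3, 22.8 and 11.2 FPKM in controls against 37.8, 53.5 and 37.9 (1.12 ± 0.32, adjusted p = 0.0211).

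**Figure D2:**
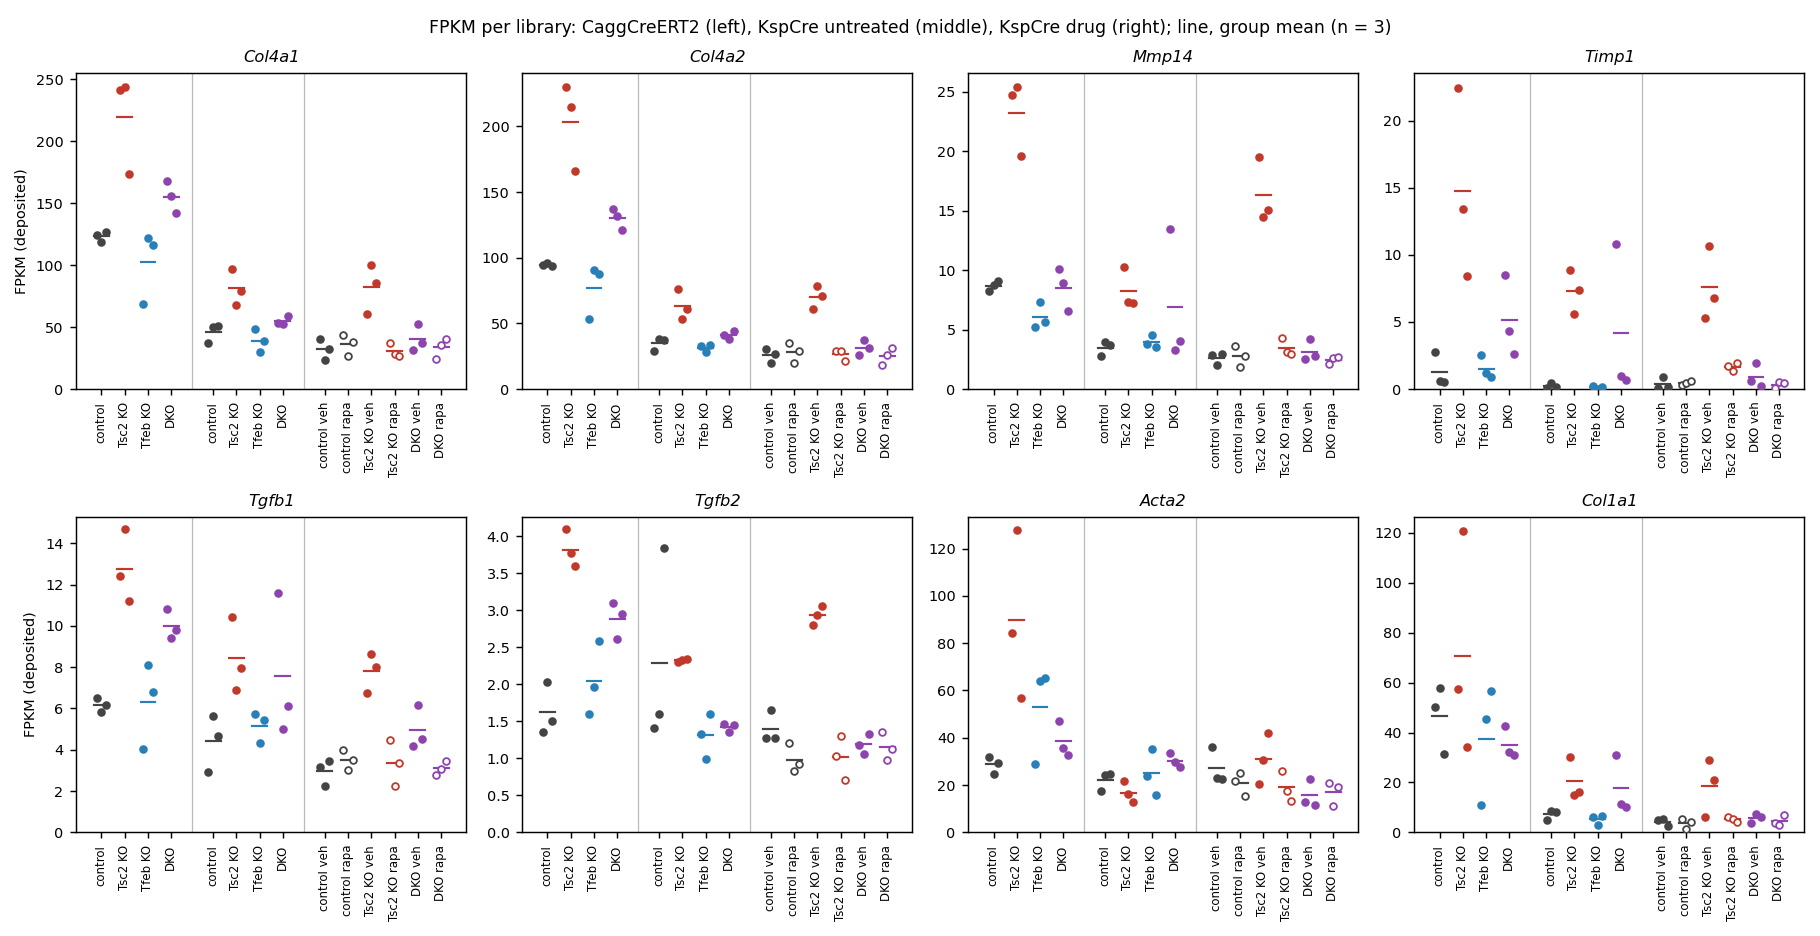
FPKM (vertical axes) of 8 genes in each of the 42 libraries, by group along the horizontal axis, with a line at the mean of 3 mice, open circles for rapamycin, and grey lines between the 3 experiments. In Tsc2 KO the points of Col4a2 and Mmp14 lie above those of the controls in all 3 experiments, and in the drug experiment they lie lower again in DKO and with rapamycin, while Acta2 is high in the CaggCreERT2 Tsc2 KO group.

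Timp1 had the largest log2 fold change of the set in each experiment. It read 2.76, 0.632 and 0.512 FPKM in CaggCreERT2 controls and 22.4, 13.4 and 8.45 in Tsc2 KO. In untreated KspCre mice it read 0.0721, 0.436 and 0.125 against 8.88, 5.55 and 7.4, and in vehicle mice 0.0591, 0.917 and 0.139 against 5.3, 10.7 and 6.81. Controls of the KspCre line were close to the detection limit, with 1, 6 and 2 counts untreated and 1, 14 and 2 counts with vehicle, so the size of the fold change there rests on few reads. The tests gave 3.59 ± 0.65 (adjusted p = 0.00162), 5.07 ± 1.13 (adjusted p = 0.012) and 4.34 ± 0.81 (adjusted p = 0.00054).

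Mmp14, a membrane-bound metalloproteinase, was chosen for full values after they were seen. It read 8.27, 8.78 and 9.06 FPKM in CaggCreERT2 controls and 24.7, 25.4 and 19.6 in Tsc2 KO (1.48 ± 0.17, adjusted p = 6.7e-05). Under vehicle its values were 2.89, 2.02 and 2.94 against 19.5, 14.5 and 15 (2.64 ± 0.26, adjusted p = 1.12e-06). The untreated KspCre values were 2.75, 3.99 and 3.73 against 10.3, 7.3 and 7.23. Every Tsc2 KO mouse was above every control in all 3, although the untreated KspCre test gave 1.24 ± 0.43 with an adjusted p of 0.0812. It was called there by DESeq2, without the low-count filter, with only the groups compared and without the macrophage-rich DKO library. With a replicate block it was not. Mmp2, a gelatinase that MMP14 activates, was called in none of the 3.

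Timp2, the inhibitor through which MMP14 binds pro-MMP2, lay on opposite sides of the controls in the KspCre experiments. Vehicle controls read 16, 23.4 and 13.9 FPKM and vehicle Tsc2 KO mice 37.2, 28.3 and 25.4, all 3 of them higher (0.77 ± 0.21, adjusted p = 0.00934). Untreated controls read 21.8, 28.6 and 25.7 and untreated Tsc2 KO mice 21.7, 18.1 and 16.9, all 3 lower (-0.43 ± 0.22, adjusted p = 0.24). The difference between the experiments was not tested, as the tables were fitted separately.

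Fibrillar collagens were less uniform. Col1a1, a chain of collagen I, read 50.1, 57.7 and 31.6 FPKM in CaggCreERT2 controls and 57.6, 121 and 34.1 in Tsc2 KO, so the groups overlapped and only mouse 2 stood out (0.67 ± 0.52, adjusted p = 0.359). Untreated KspCre kidneys gave 4.87, 8.52 and 8.11 against 30.3, 15 and 16.3, with no overlap (1.52 ± 0.46, adjusted p = 0.0509). Col1a1 was called higher there by DESeq2, without the low-count filter, with only the groups compared and without the macrophage-rich DKO library. With a replicate block it was not. In vehicle mice it read 4.94, 5.38 and 2.43 against 6.14, 28.9 and 21 (2.14 ± 0.54, adjusted p = 0.00511). Tsc2 KO vehicle mouse 1 was near the controls.

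Col3a1, the collagen III gene, resembled Col1a1 in the KspCre experiments. It read 46, 75.6 and 32.8 FPKM in CaggCreERT2 controls and 38.1, 78.2 and 26.5 in Tsc2 KO (-0.05 ± 0.50, adjusted p = 0.952). In untreated KspCre mice it read 4.98, 8.49 and 7.34 against 23.9, 11 and 13.7 (1.22 ± 0.49, adjusted p = 0.133). With vehicle it read 6.14, 4.65 and 2.73 against 3.38, 22.9 and 16.8 (1.67 ± 0.58, adjusted p = 0.0323), with mouse 1 of the Tsc2 KO group inside the control range. Of the 6 genes of this class, 1 was called higher in CaggCreERT2 mice, 0 in untreated KspCre mice and 5 in vehicle mice in the fits reported. With only the groups compared, Col3a1 was also called in untreated KspCre mice.

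The 1 gene called in CaggCreERT2 mice was Col5a2, a chain of collagen V, which controls the width of collagen fibrils. It read 4.03, 5.35 and 4.25 FPKM in controls and 6.6, 9.07 and 6.45 in Tsc2 KO (0.76 ± 0.22, adjusted p = 0.0197). The vehicle experiment gave 2.69, 3.69 and 0.636 against 8.98, 12 and 7.05 (2.00 ± 0.62, adjusted p = 0.0182). Tsc2 KO mice were above the controls in both. Col5a1 and Col1a2 were also called in vehicle mice, at 1.27 ± 0.40 and 1.31 ± 0.39.

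Collagen VI, which forms beaded filaments around cells, was called in no comparison of Tsc2 KO with control in the fits reported. Without the low-count filter Col6a3 was called higher in CaggCreERT2 Tsc2 KO. Col6a1 read 21.9, 24.7 and 17.7 FPKM in CaggCreERT2 controls and 15.3, 24.7 and 15.7 in Tsc2 KO. The untreated KspCre values were 6.68, 8.61 and 7.47 against 7.55, 5.36 and 4.67 (-0.38 ± 0.26, adjusted p = 0.385), and in vehicle mice 3.74, 5.03 and 2.97 against 4.26, 5.05 and 5.47 (0.33 ± 0.45, adjusted p = 0.598). The groups overlapped each time. Col6a3 read 4.45, 6.62 and 4.29 in CaggCreERT2 controls and 7.3, 10.1 and 4.8 in Tsc2 KO (0.59 ± 0.42, adjusted p = 0.313).

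Among the matrix glycoproteins, Fn1 (fibronectin) read 13.1, 15 and 9.42 FPKM in CaggCreERT2 controls and 22.2, 28.5 and 14.9 in Tsc2 KO (0.87 ± 0.38, adjusted p = 0.104). Untreated KspCre kidneys gave 3.48, 4.46 and 6.08 against 13.3, 5.34 and 9.05 (0.98 ± 0.51, adjusted p = 0.24). Under vehicle its values were 2.92, 4.15 and 2.48 against 3.56, 12.6 and 7.82 (1.33 ± 0.38, adjusted p = 0.0119). At least 1 Tsc2 KO mouse lay within the control range in the KspCre experiments. Fbn1 (fibrillin 1, the backbone of microfibrils) was called in vehicle mice, at 0.878, 1.29 and 0.686 FPKM in controls and 1.3, 3.51 and 2.56 in Tsc2 KO (1.37 ± 0.42, adjusted p = 0.0167).

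Sparc was called in both KspCre experiments and is given in full because of its adrenal values below. It read 58.9, 78 and 59.9 FPKM in untreated controls and 142, 89.8 and 101 in Tsc2 KO (0.75 ± 0.19, adjusted p = 0.0233). In vehicle mice it read 53.6, 49.1 and 41.1 against 116, 136 and 118 (1.36 ± 0.40, adjusted p = 0.013). No Tsc2 KO mouse overlapped the controls. In CaggCreERT2 mice it was not called (0.38 ± 0.22, adjusted p = 0.214).

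Lysyl oxidases rose in part. Lox read 4.68, 4.06 and 2.49 FPKM in CaggCreERT2 controls and 7.09, 10.1 and 5.49 in Tsc2 KO, which did not overlap but gave an adjusted p of 0.0632 (1.08 ± 0.40). With vehicle it read 1.25, 1.79 and 1.2 against 6.87, 5.17 and 3.69, all 3 higher (1.89 ± 0.42, adjusted p = 0.00217). Loxl1 was called in the same experiment at 1.15 ± 0.34 (adjusted p = 0.0142) and in CaggCreERT2 mice at 0.70 ± 0.23 (adjusted p = 0.0348). The CaggCreERT2 call was lost in all 6 fits that left out 1 mouse, with Xist as a covariate and with the count table's names. Loxl2 was called in none, and in untreated KspCre mice read 1.6, 2.3 and 1.25 against 4.67, 1.53 and 2.81 (0.81 ± 0.36, adjusted p = 0.174).

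Acta2, the smooth muscle actin that marks myofibroblasts and vessel walls, was called higher in CaggCreERT2 mice and in neither KspCre experiment, a difference between the Cre lines that was not tested. It read 32.1, 24.8 and 29.5 FPKM in CaggCreERT2 controls and 84.4, 128 and 56.7 in Tsc2 KO, all 3 higher (1.70 ± 0.32, adjusted p = 0.002). In untreated KspCre mice it read 17.3, 24.3 and 24.6 against 21.6, 16.2 and 12.8 (-0.39 ± 0.27, adjusted p = 0.388). The vehicle experiment gave 36, 23.1 and 22.6 against 20.5, 30.4 and 42 (0.19 ± 0.33, adjusted p = 0.692). In both KspCre experiments the groups overlapped. Vim, an intermediate filament of mesenchymal and injured epithelial cells, was called in CaggCreERT2 mice at 0.85 ± 0.23 (adjusted p = 0.0146). Pdgfrb, a pericyte receptor, read 5.43, 5.76 and 6.73 in vehicle controls and 6.91, 8.14 and 8 in vehicle Tsc2 KO (0.37 ± 0.26, adjusted p = 0.289).

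Lum, Dcn, Postn and Pdgfra, 4 members known as fibroblast genes and put together after their values were seen, had no call in Tsc2 KO. Lum, a proteoglycan that binds collagen fibrils, read 5.02, 9.36 and 3.28 FPKM in CaggCreERT2 controls and 0.561, 4.38 and 0.386 in Tsc2 KO (-1.68 ± 0.79, adjusted p = 0.129). The untreated KspCre values were 1.83, 1.66 and 2.09 against 0.715, 0.911 and 0.261, with no overlap (-1.57 ± 0.58, adjusted p = 0.101). Under vehicle its values were 1.76, 2.88 and 0.302 against 0.103, 0.792 and 0.768 (-1.56 ± 0.74, adjusted p = 0.108). The values were lower on average in each experiment and none of these edgeR tests passed, while DESeq2, and edgeR on only the groups compared, both called Lum lower in untreated KspCre Tsc2 KO.

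Postn (periostin) read 2.75, 6.89 and 3.62 FPKM in CaggCreERT2 controls and 1.15, 4.4 and 0.543 in Tsc2 KO (-1.07 ± 0.66, adjusted p = 0.245). Untreated KspCre kidneys gave 0.949, 1.47 and 0.761 against 0.314, 0.965 and 0.135 (-1.18 ± 0.74, adjusted p = 0.341). Pdgfra, the receptor that marks fibroblasts, read 2.77, 4.55 and 5.26 there against 2.94, 1.56 and 2.26 (-0.90 ± 0.48, adjusted p = 0.252). Each pair of groups overlapped. Dcn, the proteoglycan decorin, gave -0.69, -0.36 and -0.41 in the 3 experiments and was not called. In CaggCreERT2 mice all 4 genes were called lower when the filter on low counts was dropped. By contrast, Col1a1, Col1a2, Col3a1, Col5a1 and Col5a2 were called higher in vehicle mice, and a marker list of 13 fibroblast and pericyte genes, 6 of them members of this set, had as many genes called higher (1, 1 and 2) as lower (1, 1 and 2) in the CaggCreERT2, untreated and vehicle comparisons.

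**Figure D3:**
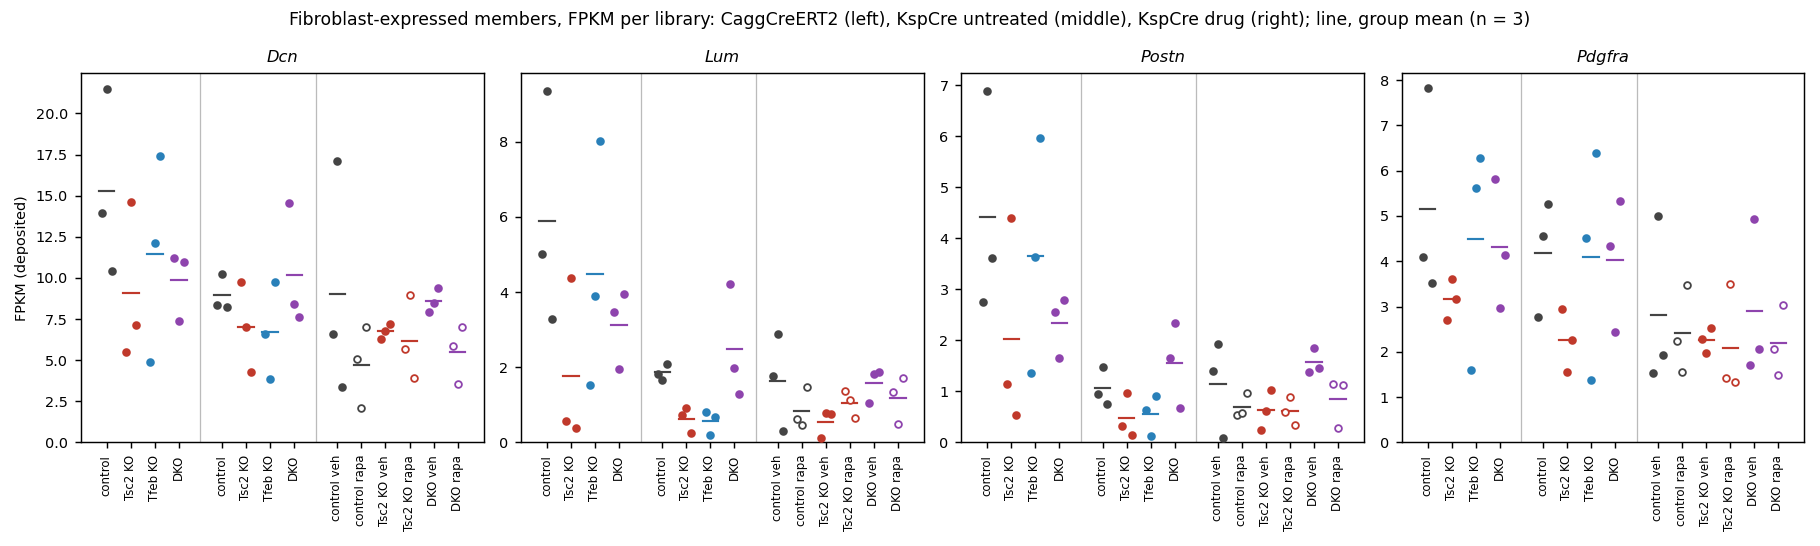
FPKM (vertical axes) of Dcn, Lum, Postn and Pdgfra in each of the 42 libraries by group, with a line at the mean of 3 mice and open circles for rapamycin. For Lum the 3 untreated KspCre Tsc2 KO mice lie below all 3 controls, and most other groups overlap.

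Markers of other cell types moved with Tsc2 loss as well, and their part in the changes above was not tested. Of 10 macrophage markers, 3 were called higher in CaggCreERT2 Tsc2 KO, 1 in untreated KspCre Tsc2 KO and 9 in vehicle Tsc2 KO, with 1 lower in the last. The summed macrophage level was 110, 195 and 142 FPKM in vehicle Tsc2 KO mice and 45.9 to 62.1 in vehicle controls. Of 8 injured tubule markers 6, 2 and 4 were called higher, of 4 proliferation markers 2, 4 and 4 were higher, and of 6 proximal tubule markers 6, 4 and 5 were lower. Macrophages and injured tubule cells can express Timp1, Tgfb1, Mmp14 and Vim.

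Loss of Tfeb alone gave no called member. Of the 38 genes 0 were called in CaggCreERT2 Tfeb KO against control, where 0.0184% of all genes were called, and 0 in KspCre Tfeb KO, where 0% were. DESeq2 also called 0 in both. An unadjusted p under 0.05 was found for 3 and 2 members, where 1309 of 16348 and 1424 of 16631 tested genes had one. Without the low-count filter Col5a2 and Acta2 were called in CaggCreERT2 mice. With it, Acta2 read 28.9, 64 and 65.4 FPKM in Tfeb KO against 32.1, 24.8 and 29.5 in control (0.90 ± 0.32, adjusted p = 0.486). In that group mouse 1 held less than the other two mice of many matrix RNAs, with Col4a1 at 68.4, 122 and 116 FPKM and Col1a1 at 10.9, 45.3 and 56.5. Its summed adrenal markers were 207 FPKM.

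Deleting Tfeb together with Tsc2 left several members lower than in Tsc2 KO. In CaggCreERT2 mice 5 fell in DKO relative to Tsc2 KO (Col4a2, Acta2, Ctgf, Mmp14 and Loxl2), where 4.58% of all genes were called lower. Without the libraries of disputed genotype Mmp14 and Loxl2 were the 2 called, where 2.52% of all genes were called lower. Loxl2 was not called higher in Tsc2 KO. It read 5.22, 2.39 and 2.58 FPKM in DKO, below all controls at 6.93, 6.68 and 6.85. Loxl2 was called lower in DKO than in control by DESeq2, without the low-count filter, with only the groups compared and without the disputed libraries. The fit reported did not call that difference. In vehicle-treated KspCre mice 10 were lower, where 10% of all genes were. Without vehicle DKO mouse 1 alone 5 were lower and 1 higher, where 6.56% and 9.09% of all genes were. The 5 and the 10 called lower in the fits of all mice are 13.2% and 26.3% of the 38. In untreated KspCre mice 0 were called by edgeR, where 0.144% of all genes were called in either direction. There 8 members had an unadjusted p under 0.05, where 2090 of 16631 tested genes did. DESeq2 called 3 members (Col4a2 and Sparc lower, Lum higher). These comparisons share their Tsc2 KO libraries with those above, so a high Tsc2 KO value enters both.

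Mmp14 was lower in DKO in both experiments with calls, and its DKO values overlapped those of the controls. It read 10.1, 8.88 and 6.56 FPKM in CaggCreERT2 DKO, against 24.7, 25.4 and 19.6 in Tsc2 KO (-1.47 ± 0.17, adjusted p = 0.000479), and differed from control by 0.01 ± 0.17 (adjusted p = 0.981). In vehicle mice DKO read 2.49, 4.17 and 2.81 against 19.5, 14.5 and 15 (-2.37 ± 0.25, adjusted p = 1.03e-05). The DKO values did not overlap those of Tsc2 KO. In untreated KspCre DKO it read 13.4, 3.27 and 4.05, and the high value belongs to the macrophage-rich mouse 1.

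Timp1 in untreated KspCre DKO was high in that same mouse. It read 10.8, 0.941 and 0.682 FPKM in untreated DKO, with 215, 14 and 10 counts, against 8.88, 5.55 and 7.4 in Tsc2 KO (-0.79 ± 0.86, adjusted p = 0.78). Only mouse 1 of the DKO group was as high as the Tsc2 KO mice, and without it the difference was -3.15 (adjusted p = 0.0882). In vehicle DKO it read 0.578, 1.97 and 0.208 against 5.3, 10.7 and 6.81, with no overlap (-3.05 ± 0.73, adjusted p = 0.00707), and the difference was -4.47 (adjusted p = 0.00216) without the adrenal-rich libraries. CaggCreERT2 DKO read 8.46, 4.32 and 2.62, between control and Tsc2 KO on average (-1.54 ± 0.58 against Tsc2 KO, adjusted p = 0.112).

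Tgfbi, a TGF-beta-induced adhesion protein, also stood apart in that KspCre DKO mouse, at 21.4 FPKM against 3.29 and 3.64. Fbln1 (fibulin 1) read 7.95, 3.27 and 4.3 there against 1.44, 1.98 and 2.4 in controls, and was the 1 member called higher in KspCre DKO than in control (1.42 ± 0.34, adjusted p = 0.0463), where 2.27% of all genes were called higher. Without mouse 1 the difference was 0.96 with an adjusted p of 0.142. In CaggCreERT2 mice Fbln1 read 7.3, 7.76 and 6.65 in DKO against 4.02, 3.4 and 3.16 in controls, with no overlap (1.08 ± 0.35, adjusted p = 0.0734).

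**Figure D4:**
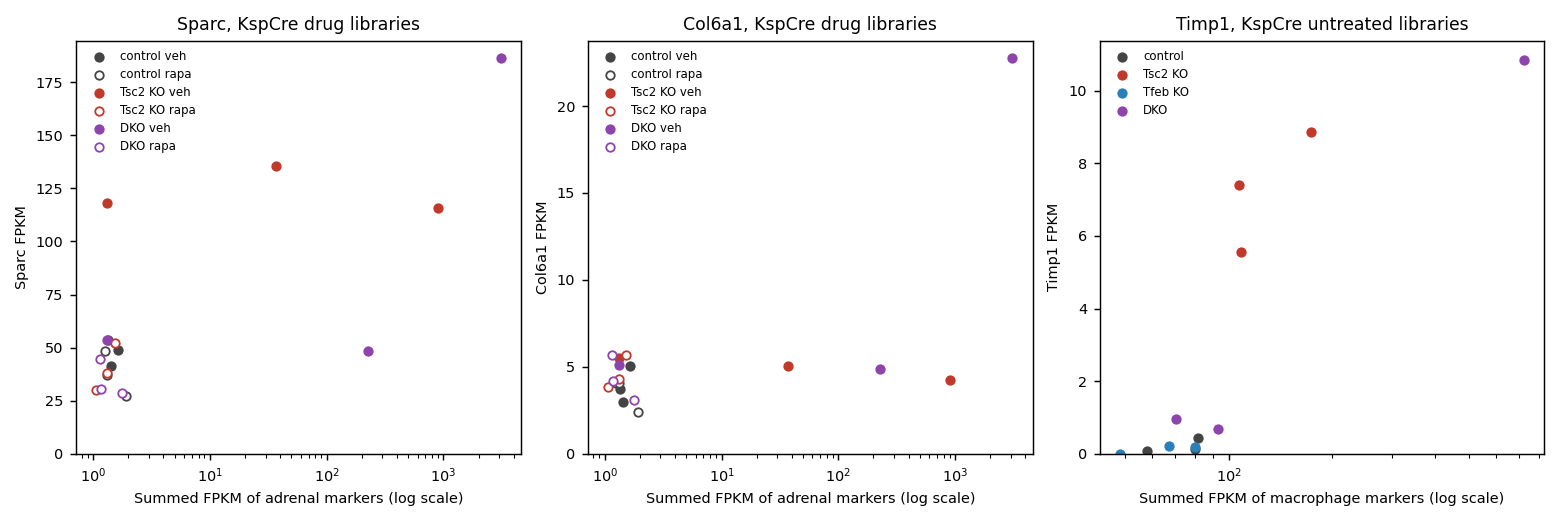
Each point is a library: Sparc and Col6a1 (FPKM, vertical) against the summed FPKM of adrenal markers (log scale) in the 18 drug libraries, and Timp1 against the summed FPKM of macrophage markers (log scale) in the 12 KspCre libraries. Vehicle DKO mouse 2, at 3097 FPKM of adrenal markers, has the highest Sparc and Col6a1 of the drug libraries, and KspCre DKO mouse 1, at 725 FPKM of macrophage markers, has the highest Timp1 of the KspCre libraries.

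Of the 4 basement membrane collagen genes 1 was called lower in CaggCreERT2 DKO than in Tsc2 KO, 2 in vehicle DKO and 0 in untreated KspCre DKO. Col4a2 read 137, 132 and 121 FPKM in CaggCreERT2 DKO (-0.67 ± 0.19 against Tsc2 KO, adjusted p = 0.0417), below all 3 Tsc2 KO mice and above all 3 controls. In vehicle DKO it read 26.2, 37.4 and 30.9 (-1.16 ± 0.23, adjusted p = 0.00201), which overlaps the controls. Col4a1 read 168, 156 and 142 in CaggCreERT2 DKO (-0.52 ± 0.20, adjusted p = 0.119) and 31.8, 52.8 and 37 in vehicle DKO (-1.02 ± 0.26, adjusted p = 0.0107). Col18a1 was not called lower in either, at -0.08 ± 0.20 and -0.51 ± 0.27, with CaggCreERT2 DKO values of 117, 93.1 and 70.4 that overlap those of Tsc2 KO.

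Of the TGF-beta ligands, Tgfb1 read 10.8, 9.39 and 9.81 FPKM in CaggCreERT2 DKO and Tgfb2 read 3.1, 2.61 and 2.95. Both were still called higher than in control, by 0.74 ± 0.20 (adjusted p = 0.0328) and 0.86 ± 0.20 (adjusted p = 0.0155), and they were the 2 members called there (5.26% of the 38), where 6.85% of all genes were called higher. The Tgfb1 call was lost in all 6 fits that left out 1 control or DKO mouse, and the Tgfb2 call in 3 of them. In vehicle mice both fell in DKO relative to Tsc2 KO, Tgfb1 at 4.18, 6.17 and 4.52 (-0.66 ± 0.22, adjusted p = 0.04) and Tgfb2 at 1.18, 1.06 and 1.32 (-1.30 ± 0.22, adjusted p = 0.000507). The Tgfb2 values lay below or within the control range, while the Tgfb1 values lay above all controls.

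Lox, Col1a1, Fn1 and Acta2 were the other matrix and contractile genes that fell in vehicle DKO. Lox read 0.51, 1.69 and 0.739 FPKM against 6.87, 5.17 and 3.69 in Tsc2 KO (-2.42 ± 0.43, adjusted p = 0.000822). Col1a1 read 3.63, 7.16 and 6.03 against 6.14, 28.9 and 21 (-1.74 ± 0.53, adjusted p = 0.0268), and Fn1 read 2.82, 3.83 and 3.9 against 3.56, 12.6 and 7.82 (-1.19 ± 0.38, adjusted p = 0.0351). Acta2 read 12.7, 22.7 and 11.7 against 20.5, 30.4 and 42 (-0.98 ± 0.33, adjusted p = 0.0452), or -1.55 (adjusted p = 0.00654) without the adrenal-rich libraries. Of these, Lox had no overlap, and the others shared a range with the lowest Tsc2 KO mouse. Col5a2 behaved otherwise, at 11.1, 7.4 and 10 against 8.98, 12 and 7.05 (0.02 ± 0.59, adjusted p = 0.981).

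Against vehicle controls, vehicle DKO mice had 0 members called by edgeR, where 6.01% of all genes were called in either direction. An unadjusted p under 0.05 was found for 7 members, where 3982 of 17027 tested genes had one, and DESeq2 called 5 members. The median log2 fold change of the 38 was 0.29. The members nearest to a call were Tgfb1 at 0.74 ± 0.22 (adjusted p = 0.0583), Col18a1 at 0.89 ± 0.27 (adjusted p = 0.0604) and Col5a2 at 2.02 ± 0.62 (adjusted p = 0.0639). With the replicate number as a block Col5a2 became a call. Single mice moved the counts in DKO. In CaggCreERT2 mice the 5 genes lower than in Tsc2 KO became 1 to 8 lower when any one of the 6 mice was left out, and Mmp14 was the one call that held throughout. In vehicle mice the 10 became 5 without Tsc2 KO mouse 2 or DKO mouse 1 and 6 without Tsc2 KO mouse 3 or DKO mouse 3. Col4a2, Tgfb2, Timp1, Mmp14 and Lox held throughout.

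Whether Tfeb loss acted differently with and without Tsc2 was tested as an interaction. In CaggCreERT2 mice 1 member was called, Acta2 at -2.15 ± 0.45 (adjusted p = 0.0397), where 0.355% of all genes were called lower. Acta2 was not called in Tfeb KO against control, where the groups overlap as given above, and read 47, 35.8 and 32.8 FPKM in DKO, below all 3 Tsc2 KO mice. The interaction call was weak. It was lost in 10 of the 12 fits that left out 1 mouse, with a replicate block (where Timp1 was called instead), with the count table's names, with Xist as a covariate, and without the 2 libraries of disputed genotype (-2.11, adjusted p = 0.112). Without those libraries Acta2 in DKO against Tsc2 KO gave -1.41 (adjusted p = 0.0502). Mmp14 gave -0.97 ± 0.24 (adjusted p = 0.0641). In KspCre mice 0 members were called by edgeR, where 0% of all genes were, and DESeq2 called 1. There 4 members had an unadjusted p under 0.05, where 1630 of 16631 tested genes did.

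Members were lower with rapamycin in Tsc2 KO kidneys. Of the 38 genes 16 were lower in rapamycin than in vehicle Tsc2 KO mice, where 14% of all genes were called lower. That is 42.1% of the 38, and 0 were higher. The median log2 fold change of the 38 was -0.90. In control mice rapamycin gave 0 calls, where 0.0294% of all genes were called in either direction, with 0 by DESeq2. An unadjusted p under 0.05 was found for 2 members, where 1926 of 17027 tested genes had one. In DKO mice 1 member was called lower, where 3.47% of all genes were. That member was Sparc (-1.47 ± 0.40, adjusted p = 0.042), at 48.1, 187 and 53.5 FPKM with vehicle and 30.3, 28.6 and 44.4 with rapamycin. Without the adrenal-rich vehicle libraries Tsc2 KO 1 and DKO 2 the difference was -0.56 (adjusted p = 0.23).

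Mmp14 read 4.33, 3.12 and 2.93 FPKM in rapamycin Tsc2 KO mice, against 19.5, 14.5 and 15 with vehicle (-2.24 ± 0.25, adjusted p = 9.09e-06). Col4a1 read 36.9, 28.4 and 26.7 against 60.8, 100 and 85.7 (-1.42 ± 0.27, adjusted p = 0.00083), and Col4a2 read 28.9, 28.9 and 21.2 against 61, 78.3 and 70.8 (-1.41 ± 0.23, adjusted p = 0.000297). These values do not overlap. The rapamycin values lay within the range of the vehicle controls for the collagens, and in mouse 3 only for Mmp14. Tgfb1 read 4.47, 2.27 and 3.38 (-1.21 ± 0.22, adjusted p = 0.000702) and Tgfb2 read 1.03, 1.3 and 0.703 (-1.53 ± 0.22, adjusted p = 9.18e-05), both below all vehicle Tsc2 KO mice.

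Among the other called genes, Lox read 1.05, 1.06 and 0.782 FPKM with rapamycin (-2.44 ± 0.43, adjusted p = 0.000529), and Loxl1 and Loxl2 were called with it. Timp1 read 1.69, 1.35 and 1.91 (-2.20 ± 0.70, adjusted p = 0.0276), below all vehicle Tsc2 KO mice and above all vehicle controls. Timp2 read 14.2, 18 and 16.1 (-0.91 ± 0.21, adjusted p = 0.00447). Col1a1 read 5.98, 5.45 and 4.05 (-1.85 ± 0.53, adjusted p = 0.0155), a narrow range that lies below vehicle Tsc2 KO mice. Fbn1 read 1.03, 1.23 and 0.579 (-1.38 ± 0.42, adjusted p = 0.0217). Sparc read 38.2, 52.3 and 29.7 (-1.62 ± 0.40, adjusted p = 0.0063).

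Members that did not pass included Col3a1 at 6.92, 7.63 and 3.82 FPKM, Acta2 at 26, 17.7 and 13.3 (-0.70 ± 0.33, adjusted p = 0.127) and Fn1 at 3.8, 5.81 and 3.29 (-0.89 ± 0.38, adjusted p = 0.0892). All 3 were called lower when the adrenal-rich vehicle libraries Tsc2 KO 1 and DKO 2 were left out, Acta2 at -0.91 (adjusted p = 0.0389), and Fn1 also without the low-count filter. The 16 calls became 8 without vehicle Tsc2 KO mouse 2 or rapamycin Tsc2 KO mouse 3. Col4a1, Col4a2, Sparc, Tgfb1, Tgfb2, Timp2, Mmp14 and Lox held whichever mouse of these 2 groups was left out. Of the 10 macrophage markers 6 were called lower with rapamycin and 4 in vehicle DKO. In each of these comparisons 3 of 8 injured tubule and 4 of 4 proliferation markers were lower. All 6 proximal tubule markers were called higher with rapamycin and 5 in vehicle DKO. In CaggCreERT2 DKO against Tsc2 KO 1 macrophage marker was lower, 4 proximal tubule markers were higher and 0 injured tubule or proliferation markers were called. Their part in the lower matrix RNAs was not tested.

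**Figure D5:**
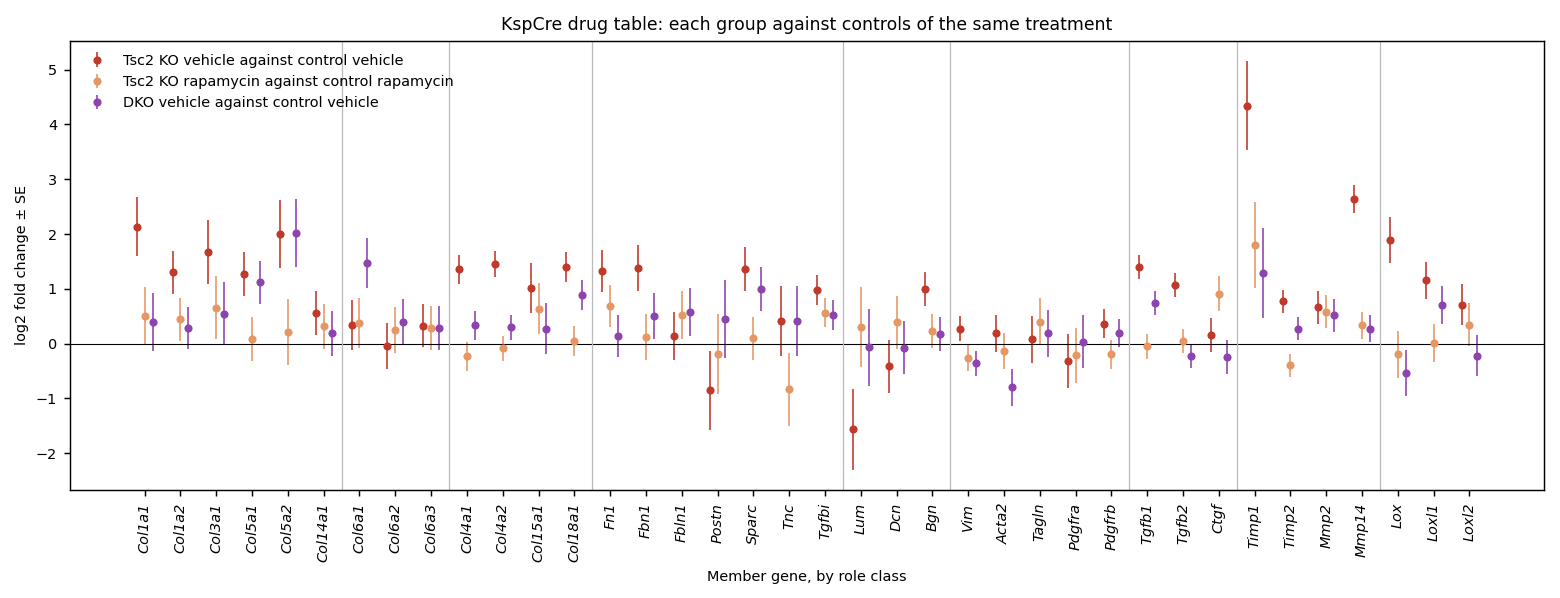
Log2 fold change against the control of the same treatment (vertical axis), with its SE, for each of the 38 genes (horizontal axis). Colours show vehicle Tsc2 KO, rapamycin Tsc2 KO and vehicle DKO. The vehicle Tsc2 KO points reach 4.34 for Timp1 and 2.64 for Mmp14. For these genes the rapamycin Tsc2 KO points lie nearer to 0, at 1.80 for Timp1 and 0.33 for Mmp14.

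Rapamycin-treated Tsc2 KO mice had 0 members called against rapamycin-treated controls, where 0.634% of all genes were called in either direction, and 0 against vehicle DKO mice, where 1.27% were. DESeq2 also called 0 in both. An unadjusted p under 0.05 was found for 2 and 5 members, where 2189 and 3318 of 17027 tested genes had one. Timp1 differed from rapamycin controls by 1.80 ± 0.78 (adjusted p = 0.352), at 1.69, 1.35 and 1.91 FPKM against 0.326, 0.44 and 0.634, which did not overlap. Mmp14 differed by 0.33 ± 0.25 (adjusted p = 0.581), at 3.63, 1.85 and 2.77 in rapamycin controls, and Col4a1 by -0.23 ± 0.26 (adjusted p = 0.741).

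The difference between rapamycin responses was tested. With rapamycin the log2 fold change was more negative in Tsc2 KO than in control mice for 8 members, against 9.38% of all genes. They were Col4a1 (-1.59 ± 0.37, adjusted p = 0.00707), Col4a2 (-1.54 ± 0.33, adjusted p = 0.00369), Col18a1, Tgfb1, Tgfb2, Timp2, Mmp14 (-2.31 ± 0.35, adjusted p = 0.000329) and Lox. Mmp14 in controls read 2.89, 2.02 and 2.94 FPKM with vehicle and 3.63, 1.85 and 2.77 with rapamycin, which overlap. The rapamycin change was more negative in Tsc2 KO than in DKO mice for 3 members, where 2.25% of all genes were called lower. The 3 were Tgfb2 (-1.49 ± 0.31, adjusted p = 0.0088), Mmp14 (-1.89 ± 0.35, adjusted p = 0.00416) and Lox (-2.29 ± 0.60, adjusted p = 0.0302). The count of 8 was 5 without rapamycin control 1. The count of 3 was 6 without the adrenal-rich vehicle DKO mouse 2. The Lox call against DKO was lost in 8 of the 12 fits that left out 1 mouse. Against control, Tgfb2 was lost in 5, Lox in 4 and Col18a1 in 2 of 12 such fits.

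Sparc and Col6a1 in vehicle DKO against vehicle Tsc2 KO also depended on DKO mouse 2. Sparc differed by -0.36 ± 0.39 (adjusted p = 0.549), by -1.28 (adjusted p = 0.0028) without that mouse alone and by -1.30 (adjusted p = 0.00562) without both adrenal-rich libraries. Col6a1 read 4.88, 22.7 and 5.12 FPKM in vehicle DKO, and its difference of 1.14 ± 0.45 (adjusted p = 0.0842) became 0.01 without that mouse and -0.06 without both. DESeq2 on all libraries called Col6a1 higher. Leaving out Tsc2 KO mouse 1 alone gave -0.41 for Sparc and 1.04 for Col6a1. Without both libraries the members called lower in vehicle DKO came to 17, where 7.3% of all genes were called lower in that fit. Those called lower with rapamycin came to 23, where 12.3% of all genes were, and those called higher in vehicle Tsc2 KO to 22, where 17.3% were.

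Genes of the same pathways outside the 38 were taken from lists written with earlier results in view. Among all tested genes 13.4%, 6.21% and 18.9% were called lower in Tsc2 KO in the CaggCreERT2, untreated KspCre and vehicle KspCre comparisons, beside the 15.6%, 7.64% and 19.4% called higher. Of 20 further TGF-beta pathway genes 5, 1 and 5 were called higher and 3 each time lower in the same order. Ltbp1, which holds latent TGF-beta in the matrix, was lower in all 3 by -1.25, -1.96 and -1.33, and Itgb8, an integrin chain that activates it, by -1.08, -0.98 and -2.08. Of 13 genes of collagen synthesis and secretion 2, 1 and 2 were higher and 0, 1 and 2 lower.

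Of 18 further basement membrane genes 2, 1 and 3 were called higher, no larger a share than among all genes, and 3, 4 and 3 lower. Col4a3, Col4a4 and Col4a5, the collagen IV chains of the mature glomerular basement membrane, were lower in all 3 experiments, the reverse of Col4a1 and Col4a2. Col4a3 differed by -1.44 ± 0.20, -1.35 ± 0.20 and -1.47 ± 0.22, Col4a4 by -0.86, -0.83 and -0.55 and Col4a5 by -0.65, -0.56 and -0.54. Of 5 podocyte markers, from the cells that make these chains in the glomerulus, 5, 5 and 4 were lower in the same comparisons, and their part was not tested. With rapamycin Col4a3 was higher in Tsc2 KO mice by 0.98. Lama3, a laminin chain of epithelia, was higher in all 3 by 1.64, 1.47 and 1.15.

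Of 28 further interstitial matrix genes 6, 3 and 6 were higher and 2, 2 and 3 lower. Spp1 (osteopontin) was higher by 2.07, 2.31 and 2.39, Col8a1 by 2.72, 2.33 and 2.36 and Fbn2 (fibrillin 2) by 1.70, 3.77 and 3.34, while Podn, a small proteoglycan, was lower by -1.15, -1.14 and -1.90. Of the listed matrix proteases and inhibitors, 5 of 14, 0 of 15 and 4 of 15 tested genes were called higher in the same order, and 1, 1 and 3 lower. Mmp7, matrilysin of injured tubules, was higher by 5.10 in CaggCreERT2 and 7.12 in vehicle KspCre Tsc2 KO. In rapamycin-treated Tsc2 KO mice, against vehicle, 3 of these 28 interstitial genes were called higher, where 15.4% of all genes were, and 7 lower, where 14% were, with Spp1 at -1.71. In vehicle DKO against Tsc2 KO 1 was called higher and 5 lower, where 11.9% and 10% of all genes were.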

How the data were processed

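Poly-A RNA of whole kidney was sequenced from 42 mice by the authors, with libraries that keep no strand information. For each of the 3 experiments the authors deposited counts (reads per gene as whole numbers, not normalized) and FPKM (fragments per length of gene and size of library). The submitters' processing notes name STAR 2.6.1d, HISAT2 2.0.5, featureCounts 1.5.0-p3, DESeq2 1.20.0 and the genome build mm10, without the role of each. All value columns were mapped to samples. In the CaggCreERT2 tables the count columns of 4 libraries carry another name than the FPKM columns that match them gene by gene, and for 2 of these another genotype, so each count column took the name of its matching FPKM column.

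Counts were fitted per table with all groups in edgeR 4.0.16 (R 4.3.3), with TMM normalization, genes kept by filterByExpr at a minimum count of 10, the quasi-likelihood test, and Benjamini-Hochberg adjustment over all tested genes. Calls were made at an adjusted p of at most 0.05. Log2 fold changes are given with their SE, and n = 3 mice per group throughout. The test was tried on simulated counts with 200 changed genes per table. Tables were handled in Python 3.11.15 with pandas 2.3.3 and numpy 2.4.6.

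The members, their role classes and the gene lists were chosen with earlier results of these data known. Values per mouse, in the comparisons where they are named, are given for the member with the largest absolute log2 fold change per role class and experiment and for Col1a1, Col3a1, Col4a1, Fn1, Acta2, Tgfb1 and Timp1; Mmp14, Sparc, Timp2, Fbln1, Ctgf and Tgfbi were added after their values were seen. Same-numbered mice were checked for pairing in 16 pairs of groups by the correlation of their deviations from the group means. All correlations were over 0.1 in 1 of them, DKO against Tsc2 KO in untreated KspCre mice (0.189 to 0.246). The sample labels give replicate numbers and name no pairs. The fits reported treat the mice as unpaired, with the replicate block as an alternative. The alternatives were DESeq2 1.42.0, RLE size factors, no filter on low counts, a mean FPKM of at least 5, only the groups compared, Xist as a covariate, a replicate block, the count table's names, and each mouse of the groups compared left out. Omitting the libraries of disputed genotype and those rich in adrenal or macrophage markers was added after seeing the data. Promoter windows came from RefSeq on GRCm38.p6.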

Additional observations from a re-analysis of the deposited data

Results flagged for a closer look

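In 3 comparisons a test of the difference itself separated the responses of 2 groups. In CaggCreERT2 mice the effect of Tfeb loss on Acta2 differed by -2.145 on the log2 scale between mice with and without Tsc2. That call was lost in 10 of the 12 fits that left out 1 mouse, with a replicate block, with Xist as a covariate, with the count table's names and without the 2 libraries of disputed genotype. In the drug experiment the log2 fold change with rapamycin was more negative in Tsc2 KO than in control mice for several members. The difference was -1.589 for Col4a1, -1.539 for Col4a2, -1.346 for Col18a1 and -1.45 for Tgfb1. For Tgfb2 it was -1.021, for Timp2 -1.167, for Mmp14 -2.309 and for Lox -2.081. The rapamycin change was also more negative in Tsc2 KO than in DKO mice, by -1.487 for Tgfb2, -1.887 for Mmp14 and -2.288 for Lox. Of the 12 fits that left out 1 mouse, 8 lost the Lox call against DKO. Against control, Tgfb2 was lost in 5, Lox in 4 and Col18a1 in 2. The 2 rapamycin tests share the Tsc2 KO libraries. Timp2 lay below all controls in untreated KspCre Tsc2 KO mice, at -0.4307, and above all controls in vehicle-treated ones, at 0.7718. That difference between experiments was not tested.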

How the results depend on the processing

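Where no share stands beside a count from an alternative fit, here or above, the share of all genes in that fit is not given. Such a count cannot be compared with all genes. Leaving out 1 mouse at a time from the groups compared, and not from the other groups of the fit, gave these ranges of members called in either direction. In CaggCreERT2 mice they were 8 to 12 in Tsc2 KO against control, 1 to 8 in DKO against Tsc2 KO, 0 to 2 in DKO against control and 0 to 3 in the interaction. In untreated KspCre mice they were 1 to 5 in Tsc2 KO against control and 0 to 2 in DKO against control. In the drug experiment they were 12 to 21 in vehicle Tsc2 KO against control, 5 to 15 in vehicle DKO against Tsc2 KO, 0 to 1 in vehicle DKO against control, 8 to 21 for rapamycin in Tsc2 KO, 0 to 2 for rapamycin in DKO, 5 to 9 for the response in Tsc2 KO against that in control and 2 to 6 against that in DKO. Without the filter on low counts the counts were 21 (17 higher, 4 lower) in CaggCreERT2 Tsc2 KO, 2 in Tfeb KO, 13 in DKO against Tsc2 KO, 6 in DKO against control, 6 in the interaction, 8 in KspCre Tsc2 KO, 2 in KspCre DKO against control, 4 in vehicle DKO against control, 3 for rapamycin in DKO, 1 in rapamycin Tsc2 KO against vehicle DKO and 6 for the response against that in DKO. With DESeq2 they were 6 in CaggCreERT2 DKO against control, 4 in its interaction, 9 in KspCre Tsc2 KO (8 higher, and Lum lower), 3 in KspCre DKO against Tsc2 KO (1 higher, 2 lower), 4 in KspCre DKO against control, 1 in the KspCre interaction, 5 in vehicle DKO against control, 4 for rapamycin in DKO and 6 for the response against that in DKO. With only the groups compared they were 7 in CaggCreERT2 DKO against control and 10 in KspCre Tsc2 KO (9 higher, and Lum lower). A mean FPKM of at least 5 left 1 in CaggCreERT2 DKO against control. The count table's names gave 2 in CaggCreERT2 DKO against Tsc2 KO, 0 in DKO against control and 0 in the interaction, and Xist as a covariate gave 4 in DKO against control and 0 in the interaction. Without the 2 libraries of disputed genotype DKO against Tsc2 KO had 2 and the interaction 0. Without KspCre DKO mouse 1 the counts were 8 in KspCre Tsc2 KO and 0 in DKO against control. Without the 2 adrenal-rich libraries they were 17 in vehicle DKO against Tsc2 KO, 0 for rapamycin in DKO and 7 for the response against that in DKO. The cause of these shifts was not tested. With a replicate block the counts became 0 in KspCre DKO against control, 1 in vehicle DKO against control and 0 for rapamycin in DKO. The count stayed at 0 in untreated KspCre DKO against Tsc2 KO, where same-numbered mice correlated. Whether those mice were paired is not known. The replicate block moved no other count by over 1.5 times, although the 1 CaggCreERT2 interaction call was Timp1 in place of Acta2. For the 20 members with values in every library by the rule, in the 7 comparisons of Tsc2 KO with control, DKO with Tsc2 KO and rapamycin with vehicle in Tsc2 KO, 1563 log2 fold changes under the alternatives kept their sign and their call or lack of one, 57 became a call, 92 lost one, and 48 changed sign with a call in neither fit. Over all 38 members and all 20 comparisons, 0 values that were called in the reported fit or the alternative changed sign.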
